A study of Mus musculus with 12 samples.

Results

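The DNA break signalling and repair genes are a set of 30 genes that cells use to find and mend broken DNA. They were chosen by symbol from a count table of 23893 genes, and all 30 were present. By role they fell into 10 genes of break sensing and signalling, 5 of end joining, 8 of homologous recombination, 5 of transcription-coupled repair and 2 of nick repair. The members were compared across 4 groups of cultured cortical neurons in which the DNA enzyme TOP1 was present, removed, trapped on DNA by topotecan, or both removed and exposed to the drug.

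TOP1 relaxes DNA ahead of RNA polymerase by cutting a single strand, and topotecan holds the enzyme on the cut as the TOP1 cleavage complex (TOP1cc). A TOP1cc that meets a polymerase or a replication fork can become a lasting break, which is sensed by the kinases ATM, ATR and DNA-PK. Broken ends are then joined directly by Ku, DNA-PK and ligase IV, or copied from a sister chromatid by homologous recombination. Neurons no longer divide, so they are known to rely on end joining, on nick repair and on the repair of transcribed strands more than on homologous recombination.

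The study set removal of TOP1 against its inhibition in mouse cortical neurons, with 3 cultures in each group and polyA RNA sequenced from each. Cultures were made from E13.5 to E15.5 embryos on a C57BL6 background, and per the study's methods those of both genotypes carried floxed Top1 alleles (Top1 fl/fl). The WT-Veh and WT-Topot groups received a lentivirus for the red marker tdTomato, and both cKO groups, Top1 cKO-Veh and Top1 cKO-Topot, received tdTomato-P2A-CRE, in each case from the CaMKIIα promoter, on day 3 in vitro. From day 15, the Veh cultures were kept for 3 days in 0.003% DMSO and the Topot cultures in the same vehicle with 300 nM topotecan. The promoter limits CRE to neurons, and about 85 to 90% of the cells were transduced, so cells with intact Top1 remained in the cKO cultures.

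The Top1 transcript matched the labels. Its level was 117, 163 and 124 CPM (counts-per-million, scaled to library size) in the 3 WT-Veh libraries, 129, 140 and 130 CPM in WT-Topot, 30.1, 44.0 and 27.1 CPM in Top1 cKO-Veh and 29.1, 37.5 and 28.4 CPM in Top1 cKO-Topot. The cKO libraries were all below the WT libraries, and Top1 fell by 1.98 on the log2 scale (SE 0.233, adjusted p = 0.00119) in Top1 cKO-Veh against WT-Veh by the quasi-likelihood test of edgeR. The libraries held 1730164 to 4583777 counts, so 3 counts, taken here as the floor of detection, corresponded to 0.687 to 1.73 CPM.

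The summed level of 10 neuron markers was 7283 to 9728 CPM over all libraries, but single markers moved. Of the 10, Rbfox3 fell with topotecan in WT cultures, and when the fit was blocked by replicate number 5 fell (Rbfox3, Map2, Snap25, Gad1 and Gad2) and 2 rose. The sum of 9 astrocyte markers was 2404 to 4944 CPM in WT-Veh and 1140 to 1934 CPM in WT-Topot, and 2718 to 6254 CPM in Top1 cKO-Veh and 1719 to 3189 CPM in Top1 cKO-Topot. Of the 9, 3 fell with topotecan in WT cultures (Gfap, Slc1a3 and Slc1a2) and 0 after deletion, and with the block 5 fell in each, as did 4 in Top1 cKO-Topot against WT-Veh. None of the 9 was at 0 in any group, and the part of these cells in the values of the repair genes was not tested. In bulk cultures, fewer cells of a type and less RNA per cell cannot be told apart.

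Of 14 proliferation markers, whose sum was 40.9 to 64.3 CPM over all libraries, 0 passed the test in any comparison (0 or 1 at an unadjusted p under 0.05, and 0 by DESeq2's Wald test), and 8 had a mean below 1 CPM. Nes, 1 of 5 progenitor markers, rose in both topotecan groups against WT-Veh. The sum of 8 microglia markers was 5.18 to 20.2 CPM in WT-Veh, between 8.14 and 17.8 CPM in WT-Topot, 2.51 to 6.64 CPM in Top1 cKO-Veh and 3.06 to 9.3 CPM in Top1 cKO-Topot, and with the block C1qb fell in either cKO group against WT-Veh. The sum of 8 oligodendrocyte markers was 95.6 to 153.8 CPM in WT-Veh and reached 296.9 CPM in Top1 cKO-Topot, and with the block Olig1 rose in each of the other groups against WT-Veh. These markers did not move as 1 set. With the block Mbp fell in WT-Topot against WT-Veh (log2 fold change -0.591), and Olig2 rose in Top1 cKO-Topot against WT-Veh (1.32). The sum of 7 vascular markers was 14.6 to 45.4 CPM. Mag was at 0 in all groups and Cldn5 in 3.

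Most repair genes were expressed at a low level. Of the 30 members, 27 had a mean of at least 1 CPM over the 12 libraries, 9 of them were above 20 CPM, and Chek1, Palb2 and Fancd2 were below 1 CPM. Per kb of exon, the median member had 1.51 CPM in WT-Veh, and the median of 13348 genes with at least 1 CPM had 7.09. H2afx, the histone variant H2AX that is phosphorylated around breaks, was highest per kb in WT-Veh at 36.4 ± 3.61 CPM per kb (SD, n = 3), followed by Trp53bp1 at 12 ± 1.34 CPM per kb, and the libraries of each lay apart from those of the next gene in the order. Below these the order ran from Lig4 at 8.14 ± 1.11 CPM per kb, through Aptx, Lig3 and Mdc1, down to Fancd2 at 0.0246 ± 0.0426 CPM per kb, and from Lig4 on the libraries of each gene overlapped those of the next. The 8 genes of homologous recombination were spread over ranks 8 (Mus81) to 30 (Fancd2) of the 30.

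**Figure D1:**
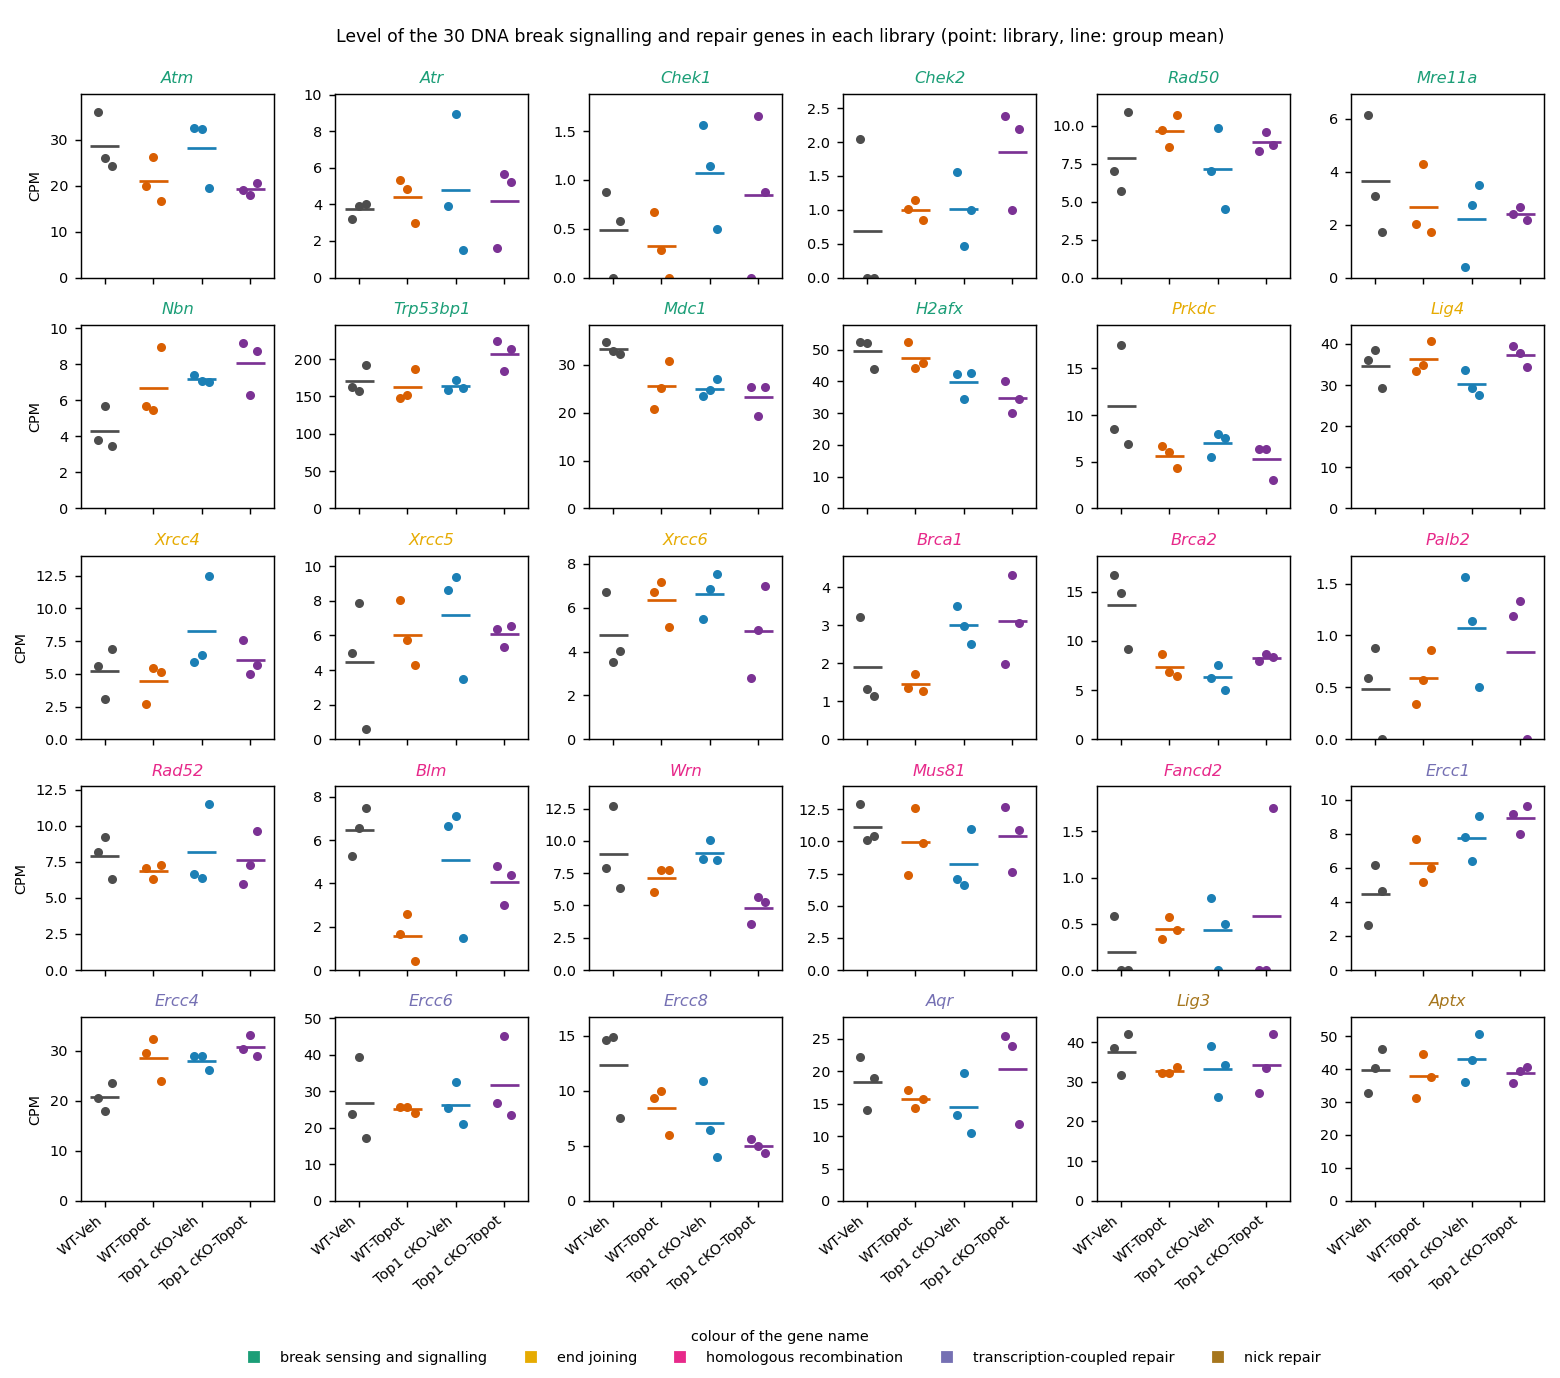
Level of each of the 30 repair genes in CPM (vertical axis, from 0, with its own scale in each panel) in the 4 groups (horizontal axis). Points are libraries, horizontal lines are the means of 3 libraries, and the colour of the gene's name gives its role. Trp53bp1 lies at 148 to 224 CPM in every library, whereas Chek1, Palb2 and Fancd2 stay below 2 CPM.

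The transcripts of the repair genes did not pass the test in any of the 6 comparisons made. Topotecan in WT cultures changed 2.72% of all 23893 genes at a false discovery rate (FDR) of 0.01 (the quasi-likelihood test of edgeR, Benjamini-Hochberg adjusted), and 0 of the 30 repair genes. Deletion alone changed 0.172% of all genes, topotecan after deletion 0.00837%, and deletion with topotecan against WT-Veh 1.68%, again with 0 of the 30 members in each. The comparison of WT-Topot with Top1 cKO-Veh called 1.53% of all genes and 0 members, and the interaction of topotecan and deletion 0.435% and 0 members. DESeq2's Wald test called 0 members in each of the 6 comparisons as well. At these rates less than 1 member in 30 would be called if members were called as often as all genes, so a count of 0 does not set them apart.

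At an unadjusted p under 0.05 the members were counted against the 13720 genes with at least 1 CPM. In WT-Topot against WT-Veh 3 of the 27 members at this level were under it (21.4% of the genes were), namely Prkdc, Brca2 and Blm, all with a lower value. In Top1 cKO-Veh against WT-Veh it was 1 member, Brca2, also lower, beside 14.2% of the genes. In Top1 cKO-Topot against Top1 cKO-Veh 2 members were under it, Wrn with a lower and Trp53bp1 with a higher value, beside 6.84%. In Top1 cKO-Topot against WT-Veh there were 5, with lower values for H2afx, Prkdc and Ercc8 and higher values for Ercc1 and Ercc4, beside 22.3%. In the other two comparisons it was 1 member each, Blm with a lower value for WT-Topot against Top1 cKO-Veh (20.1% of the genes) and Brca2 for the interaction (13.4%).

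The median log2 fold change of the 30 members was -0.13 in WT-Topot against WT-Veh, where that of 13720 genes with at least 1 CPM was 0.03. For Top1 cKO-Veh against WT-Veh the median was -0.00251, and for Top1 cKO-Topot against Top1 cKO-Veh 0.000681, next to -0.00334 and -0.000331 over the 13720 genes. For some members the data bounded the change closely. The 95% interval lay within a 2-fold change in either direction for 10 members with topotecan in WT cultures, 13 after deletion and 11 with topotecan after deletion. Trp53bp1, Mdc1, H2afx, Lig4, Rad52, Ercc6, Lig3 and Aptx were among them in all 3 comparisons. For the other members the interval reached a 2-fold change or went beyond it in at least 1 of the 3.

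**Figure D2:**
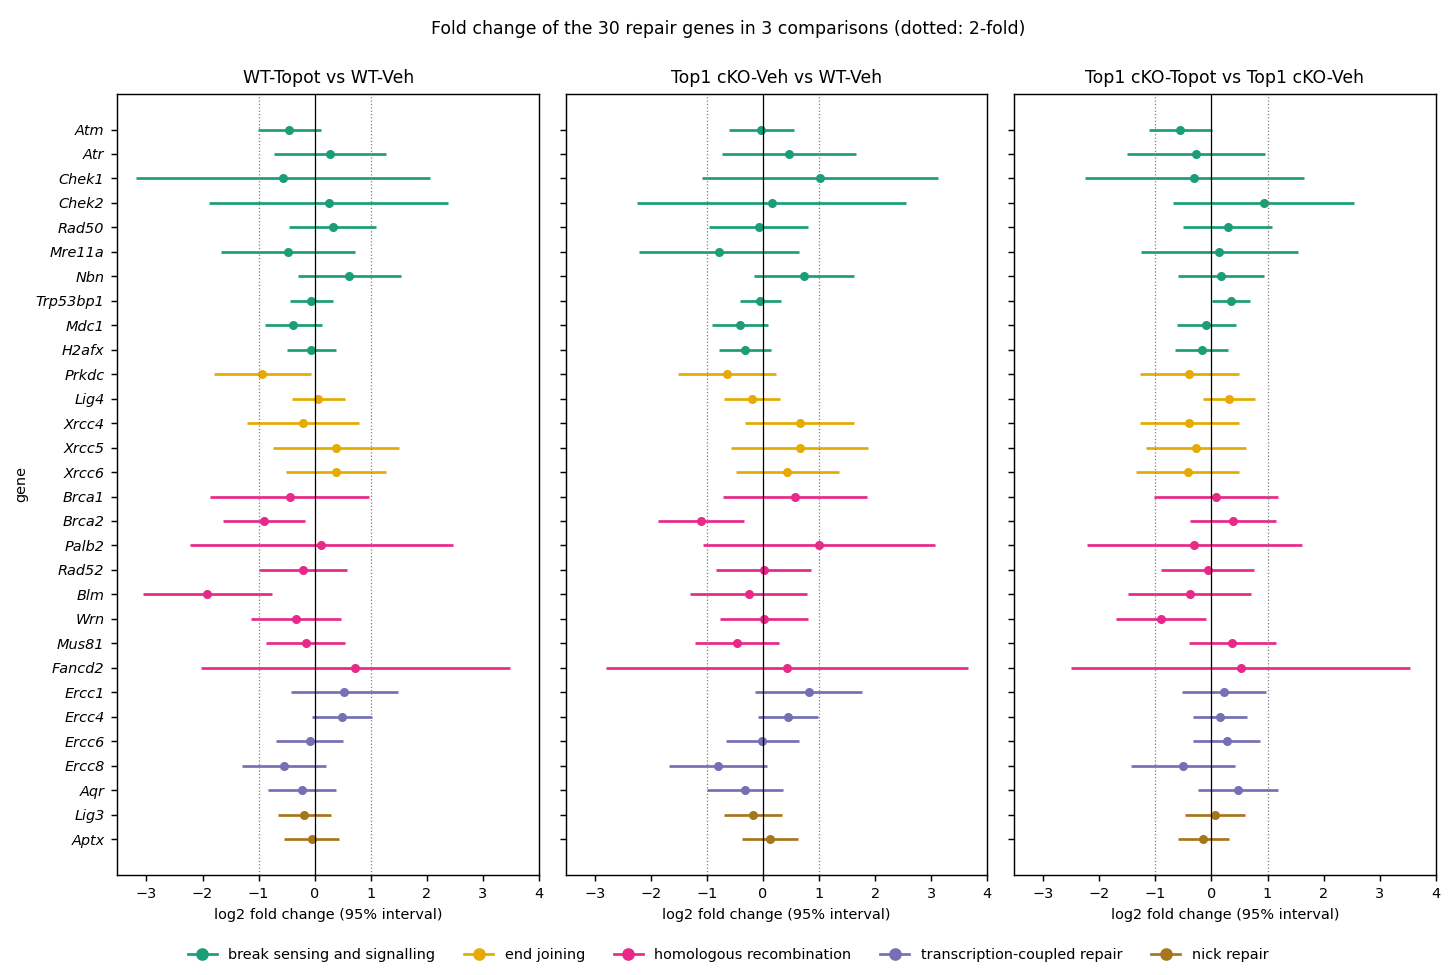
Log2 fold change of the 30 repair genes (horizontal axis) with its 95% interval from edgeR's quasi-likelihood fit, for topotecan in WT cultures, deletion alone and topotecan after deletion (panels). Dotted lines mark a 2-fold change. Blm at -1.92 with topotecan in WT cultures lies farthest from 0, and Chek1, Palb2 and Fancd2, which have a mean below 1 CPM, are among the genes with the widest intervals. Colours stand for roles.

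The replicate numbers of the labels were taken to pair the libraries, because of their correlation in these same counts. The labels state no pairing. With the number as a block more genes were called: 8.25% of all genes in WT-Topot against WT-Veh, 5.56% in Top1 cKO-Veh against WT-Veh, 2.59% in Top1 cKO-Topot against Top1 cKO-Veh, 7.37% in Top1 cKO-Topot against WT-Veh, 7.73% in WT-Topot against Top1 cKO-Veh and 3.97% for the interaction. With the block 1 of the 30 members was called in each of 3 comparisons, always with a lower value. It was Blm with topotecan in WT cultures (5.0% of all genes were called lower), Brca2 after deletion (2.95%) and Ercc8 with deletion and topotecan against WT-Veh (4.02%). At an unadjusted p under 0.05 with the block, these comparisons had 5 members (4 lower), 6 (4 lower) and 11 (7 lower), in the same order. The share of genes at that threshold is not given for them, so these counts cannot be read as a result about the members. In the other comparisons 0 were called. At an unadjusted p under 0.05 they had 4 members (topotecan after deletion, 19.8% of genes with at least 1 CPM), 3 (WT-Topot against Top1 cKO-Veh, 32.7%) and 3 (interaction, 24.6%). A call of 1 member in 30 lies near these backgrounds. The backgrounds themselves moved when a library was left out, and their ranges are given with the limits.

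Among the 10 genes of sensing and signalling, 0 were called in any comparison with or without the block. At an unadjusted p under 0.05 there were 0 or 1 without the block. With it there were up to 5, in Top1 cKO-Topot against WT-Veh (3 lower and 2 higher). The share of genes at this threshold with the block is not given there, so the 5 cannot be read as a result about the sensing genes. Trp53bp1 encodes 53BP1, a chromatin reader that steers breaks toward end joining, and was the most abundant member in CPM. Its level was 162, 157 and 192 CPM in WT-Veh, 148, 152 and 187 CPM in WT-Topot, 158, 172 and 161 CPM in Top1 cKO-Veh and 224, 184 and 213 CPM in Top1 cKO-Topot. The Top1 cKO-Topot libraries were all above those of Top1 cKO-Veh, and the other groups overlapped. The log2 fold change for topotecan after deletion was 0.35 (SE 0.158), with an adjusted p of 1.0 by edgeR's quasi-likelihood test and of 0.0279 with the block. In WT cultures the same drug gave -0.06 (95% interval -0.44 to 0.32). Exons of Tubgcp4 on the opposite strand cover 15.0% of the exon length of Trp53bp1. Whether the counting used strand is not given in the sources used here, so reads over this shared part cannot be told apart.

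H2afx was measured at 52.4, 52.2 and 43.8 CPM in WT-Veh, 52.3, 44.1 and 45.8 CPM in WT-Topot, 42.2, 34.3 and 42.6 CPM in Top1 cKO-Veh and 40.2, 29.9 and 34.5 CPM in Top1 cKO-Topot. The libraries of either cKO group lay below all WT-Veh libraries, whereas WT-Topot overlapped WT-Veh. Against WT-Veh the log2 fold change was -0.32 (SE 0.219, adjusted p = 0.846) for Top1 cKO-Veh and -0.49 (SE 0.231, adjusted p = 0.362) for Top1 cKO-Topot, and neither passed. Part of the H2AX transcripts of cells carries no poly(A) tail, and such transcripts are not captured in polyA RNA.

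Mdc1, the adaptor that binds phosphorylated H2AX, had 34.8, 32.9 and 32.3 CPM in WT-Veh. It had 20.8, 25.2 and 30.8 CPM in WT-Topot, 23.5, 24.7 and 27.1 CPM in Top1 cKO-Veh and 25.5, 19.3 and 25.4 CPM in Top1 cKO-Topot. All 9 libraries of the other groups were below the lowest of WT-Veh. The log2 fold changes against WT-Veh were -0.38, -0.41 and -0.49 in this order, with adjusted p-values of 0.64, 0.724 and 0.427. These 3 comparisons share the WT-Veh libraries.

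Atm, the kinase that responds first to breaks, was lower in the mean of either topotecan group. Its level was 36.0, 25.9 and 24.2 CPM in WT-Veh, 19.8, 26.3 and 16.7 CPM in WT-Topot, 32.5, 32.3 and 19.5 CPM in Top1 cKO-Veh and 19.1, 17.9 and 20.5 CPM in Top1 cKO-Topot. Treated and untreated libraries overlapped in each genotype. The log2 fold change with topotecan was -0.45 (SE 0.268, adjusted p = 0.576) in WT cultures and -0.55 (SE 0.267, adjusted p = 1.0) after deletion.

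The remaining sensing genes were read at lower depth. Atr, the kinase of single-stranded DNA, was at 1.5 to 8.93 CPM, and the checkpoint kinase genes Chek1 and Chek2 at 0 to 1.66 CPM and 0 to 2.39 CPM. Of the MRN complex that clamps broken ends, Rad50 had 4.51 to 10.9 CPM, Mre11a 0.391 to 6.14 CPM and Nbn 3.46 to 9.16 CPM. Nbn was the member of the complex whose libraries parted: 3.8, 5.7 and 3.46 CPM in WT-Veh, 7.43, 7.1 and 7.01 CPM in Top1 cKO-Veh and 9.16, 6.31 and 8.74 CPM in Top1 cKO-Topot, with both cKO groups above WT-Veh. Its log2 fold change was 0.73 (SE 0.419, adjusted p = 0.743) after deletion and 0.91 (SE 0.436, adjusted p = 0.372) for deletion with topotecan. The values of Chek1 rest on 0 to 5 counts per library, so only a change of many-fold could have been called.

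Of the 5 end joining genes, Prkdc was under an unadjusted p of 0.05 in WT-Topot and in Top1 cKO-Topot against WT-Veh, and 0 were called with or without the block. Lig4, the ligase that seals the ends, was the best measured, at 36.0, 38.6 and 29.4 CPM in WT-Veh, 33.5, 34.9 and 40.7 CPM in WT-Topot, 33.6, 29.3 and 27.6 CPM in Top1 cKO-Veh and 39.4, 37.9 and 34.5 CPM in Top1 cKO-Topot. Only the cKO groups were apart from each other, with a log2 fold change of 0.32 (SE 0.221, adjusted p = 1.0) for topotecan after deletion. In WT cultures topotecan gave 0.07, with a 95% interval from -0.41 to 0.54.

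Prkdc encodes the catalytic subunit of DNA-PK and spans 204 kb. It was at 8.48, 17.5 and 6.91 CPM in WT-Veh, 6.7, 6.01 and 4.28 CPM in WT-Topot, 5.47, 8.01 and 7.52 CPM in Top1 cKO-Veh and 6.37, 6.31 and 3.06 CPM in Top1 cKO-Topot. Each topotecan group lay below WT-Veh, in which the second library stood above the others. The log2 fold change against WT-Veh was -0.94 (SE 0.414, adjusted p = 0.313) for WT-Topot and -1.03 (SE 0.447, adjusted p = 0.291) for Top1 cKO-Topot. The remaining genes were the ligase partner Xrcc4, at 2.68 to 12.5 CPM, and the Ku subunits Xrcc5, at 0.576 to 9.39 CPM, and Xrcc6, at 2.79 to 7.52 CPM. Their groups overlapped in every comparison with the exception of Xrcc4 between WT-Topot (2.68, 5.44 and 5.14 CPM) and Top1 cKO-Veh (5.87, 6.41 and 12.5 CPM), where the log2 fold change was -0.86 (SE 0.437, adjusted p = 0.481).

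Homologous recombination held 2 of the 3 members called with the block, Blm and Brca2. They were called in different comparisons, 1 of the 8 genes in each, where 8.25% and 5.56% of all genes were called. Summed over the 8 genes of this role, the level was 55.3, 55.7 and 40.9 CPM in WT-Veh, 32.8, 38.9 and 34.3 CPM in WT-Topot, 41.1, 41.9 and 41.1 CPM in Top1 cKO-Veh and 38.2, 37.9 and 43.3 CPM in Top1 cKO-Topot. The libraries of WT-Topot were all below those of WT-Veh, and in WT-Veh the third library lay apart from the others. The means were 50.6 ± 8.43 (SD, n = 3), 35.3 ± 3.18, 41.4 ± 0.481 and 39.8 ± 3.03 CPM. Much of the difference between WT-Veh and WT-Topot lay in Brca2, with means of 13.6 and 7.3 CPM, and Blm, with 6.44 and 1.56 CPM. In that comparison 6 of the 8 genes had a lower value and 2 a higher one. The sums of the other roles overlapped between WT-Veh and each of the other groups. The sum of all 30 members was also apart, at 561.5 to 579.9 CPM in WT-Veh, between 508.4 and 546.4 CPM in WT-Topot and 523.1 to 559.0 CPM in Top1 cKO-Veh, and at 563.6 to 593.5 CPM in Top1 cKO-Topot it overlapped WT-Veh. Abundant genes weigh most in this sum, and Trp53bp1 alone had a mean of 170.1 CPM in the untreated WT cultures. Counted by gene, 19 members were lower and 11 higher with topotecan in WT cultures. After deletion 15 were lower and 15 higher, with a median log2 fold change of -0.00251. How often sums of other genes lie apart was not tested.

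**Figure D3:**
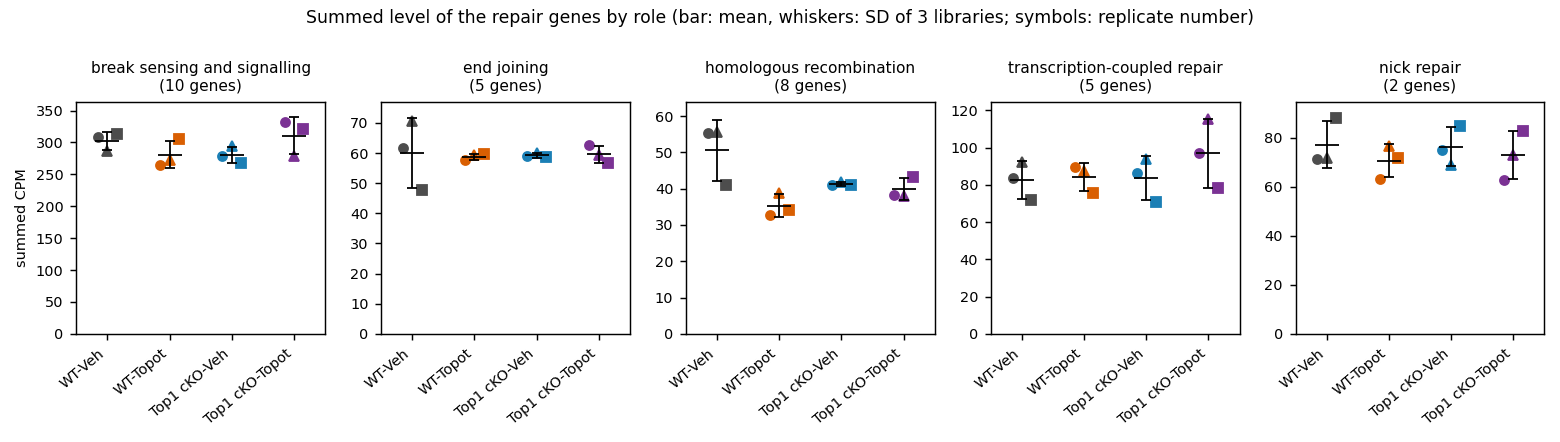
Summed level of the repair genes by role in CPM (vertical axis, from 0) in each library of the 4 groups (horizontal axis). Symbols stand for the replicate numbers, bars for the mean and whiskers for the SD of 3 libraries. The homologous recombination genes sum to 40.9 to 55.7 CPM in WT-Veh and to 32.8 to 38.9 CPM in WT-Topot.

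Blm encodes the RecQ helicase that takes apart crossed strands late in recombination and lies on the minus strand of chromosome 7 (chr7:87599879-87680005 in mm9, 23 exons, 80.1 kb). It had 5.27, 6.57 and 7.49 CPM in WT-Veh, 1.68, 2.58 and 0.428 CPM in WT-Topot, 6.65, 7.1 and 1.5 CPM in Top1 cKO-Veh and 4.78, 2.99 and 4.37 CPM in Top1 cKO-Topot. The WT-Topot libraries lay below all WT-Veh libraries, and the third Top1 cKO-Veh library was as low as WT-Topot. The Top1 cKO-Topot libraries lay between, above those of WT-Topot and below those of WT-Veh. The values rest on 18, 15 and 13 counts in WT-Veh and on 5, 9 and 1 counts in WT-Topot. The log2 fold change was -1.92 (SE 0.552, 95% interval -3.07 to -0.76), with an adjusted p of 0.0535 by edgeR's quasi-likelihood test and of 0.0033 with the block, under which the value was -1.94. With the block and without WT-Topot replicate 2 the call held at -2.41 (adjusted p = 0.00642). It was lost without any of the other 5 libraries, with values from -2.41 to -1.47 and adjusted p-values from 0.0102 to 0.162. Topotecan after deletion gave -0.39 (SE 0.519, adjusted p = 1.0), and the difference between the genotypes, 1.52 (SE 0.77), had an adjusted p of 0.668.

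Brca2 encodes a mediator that loads the recombinase onto resected ends and lies on the plus strand of chromosome 5 (chr5:151325205-151372321 in mm9, 27 exons, 47.1 kb). Its level was 16.7, 14.9 and 9.21 CPM in WT-Veh, 8.71, 6.87 and 6.42 CPM in WT-Topot, 6.26, 7.56 and 5.01 CPM in Top1 cKO-Veh and 7.97, 8.63 and 8.31 CPM in Top1 cKO-Topot. Every library of the other groups lay below the lowest of WT-Veh, which was the third. After deletion the log2 fold change was -1.10 (SE 0.362, 95% interval -1.87 to -0.34), with an adjusted p of 0.247 by edgeR's quasi-likelihood test and of 0.00672 with the block, where the value was -1.11. With the block, the call was lost without any one of the 6 libraries, with values from -1.20 to -0.95 and adjusted p-values from 0.0183 to 0.231. With topotecan in WT cultures the log2 fold change was -0.90 (SE 0.348, adjusted p = 0.21, 0.0325 with the block). Deletion with topotecan gave -0.71 (SE 0.353, adjusted p = 0.403) against the same WT-Veh libraries.

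**Figure D4:**
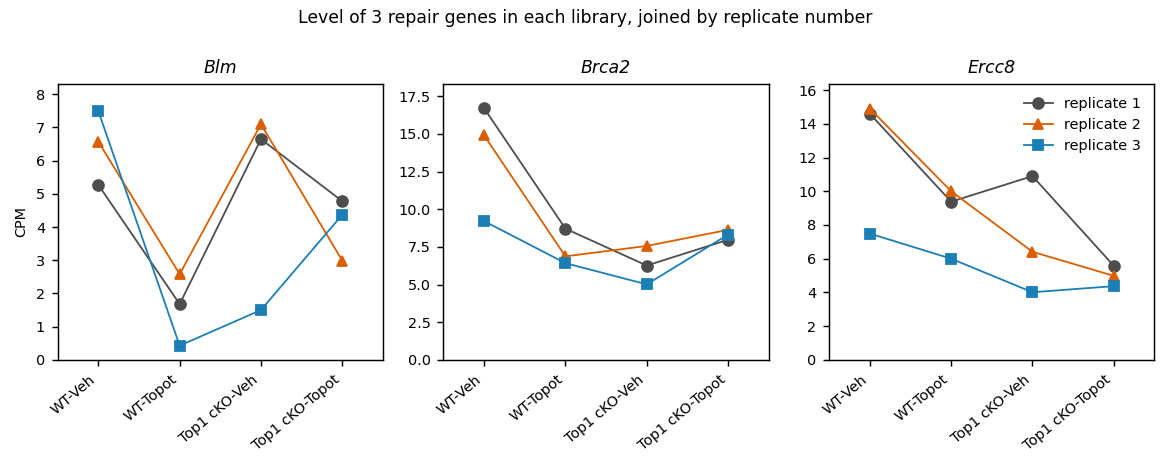
Level of Blm, Brca2 and Ercc8 in CPM (vertical axis, from 0) in the 4 groups (horizontal axis), with lines joining libraries of the same replicate number. Blm is below 3 CPM in all WT-Topot libraries and above 5 CPM in all WT-Veh libraries, and Ercc8 is lowest in Top1 cKO-Topot for numbers 1 and 2.

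Promoter sequences are shown for the 3 members called with the block, so that a reader can see where their transcripts start. Blm met the rule for printing, and Brca2 and Ercc8 were added after their values were seen. They were taken from RefSeq on GRCm38.p6, 250 bases before to 50 after the start, and are given on the strand of the gene. The entry for Blm is chr7:80534949-80535248 on the minus strand, that for Brca2 chr5:150522371-150522670 on the plus strand, and that for Ercc8 chr13:108158488-108158787 on the plus strand. Capitals mark matches on either strand, with motifs chosen after the data were seen. The box bound by NF-Y was searched as CCAAT. The box bound by SP1 and its relatives, or GC box, was searched as GGGCGG. The cAMP response element was searched as TGACGTCA, the box of core promoters bound by TBP as TATAAA, and the E2F motif as TTTCCCGC, TTTCGCGC, TTTGCCGC or TTTGGCGC.
Blm: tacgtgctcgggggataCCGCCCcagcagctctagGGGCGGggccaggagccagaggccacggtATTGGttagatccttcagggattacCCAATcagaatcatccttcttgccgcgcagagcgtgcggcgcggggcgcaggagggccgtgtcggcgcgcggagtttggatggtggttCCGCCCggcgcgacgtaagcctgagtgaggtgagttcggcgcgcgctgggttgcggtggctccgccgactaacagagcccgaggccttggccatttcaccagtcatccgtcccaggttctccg
Brca2: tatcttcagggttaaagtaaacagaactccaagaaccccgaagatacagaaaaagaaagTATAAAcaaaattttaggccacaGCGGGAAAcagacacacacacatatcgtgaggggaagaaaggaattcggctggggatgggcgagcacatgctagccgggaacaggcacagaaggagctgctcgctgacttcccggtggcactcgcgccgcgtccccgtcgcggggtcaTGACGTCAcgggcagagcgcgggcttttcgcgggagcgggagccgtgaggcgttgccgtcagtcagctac
Ercc8: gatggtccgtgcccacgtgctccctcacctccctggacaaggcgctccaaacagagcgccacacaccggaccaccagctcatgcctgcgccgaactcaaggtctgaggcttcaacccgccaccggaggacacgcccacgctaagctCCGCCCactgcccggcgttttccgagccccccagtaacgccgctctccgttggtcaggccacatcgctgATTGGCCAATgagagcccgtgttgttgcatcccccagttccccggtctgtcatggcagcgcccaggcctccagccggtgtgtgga

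The Blm promoter held 2 CCAAT and 3 GC box matches, and that of Ercc8 held 1 GC box and 2 CCAAT matches that abut on opposite strands, 35 and 30 bases before the start. The Brca2 promoter held 1 E2F match 168 bases, 1 TATAAA match 191 bases and 1 TGACGTCA match 20 bases before the start. Blm and Ercc8 thus shared CCAAT and GC box matches, and Brca2 had neither. Over 27025 promoters of the same length, 37.9% held CCAAT, 35.9% GGGCGG, 14.2% TATAAA, 2.32% the E2F motif and 1.88% TGACGTCA. Of 24 members with a promoter entry, 13 held CCAAT, 14 GGGCGG, 2 TATAAA, 4 the E2F motif and 2 TGACGTCA. A match is a description of the letters and not of binding.

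The other 6 recombination genes were not called with or without the block. Wrn, the second RecQ helicase among them, was at 7.9, 12.7 and 6.34 CPM in WT-Veh, 6.03, 7.73 and 7.71 CPM in WT-Topot, 8.6, 10.1 and 8.52 CPM in Top1 cKO-Veh and 3.58, 5.65 and 5.25 CPM in Top1 cKO-Topot. The Top1 cKO-Topot libraries lay below those of each other group. With topotecan after deletion its log2 fold change was -0.90 (SE 0.382, adjusted p = 1.0, 0.133 with the block). Rad52, which anneals single strands, lay between 5.97 and 11.5 CPM, and Mus81, a nuclease of branched DNA, between 6.64 and 12.9 CPM, with overlapping groups in all comparisons. Brca1, which licenses the resection of ends, had 1.15 to 4.32 CPM, and its WT-Topot libraries (1.34, 1.72 and 1.28 CPM) lay below those of Top1 cKO-Veh (3.52, 2.98 and 2.51 CPM) with a log2 fold change of -1.03 (SE 0.573, adjusted p = 0.573). Palb2, which links BRCA1 to BRCA2, had 0 to 5 counts in a library and Fancd2, of the crosslink repair pathway, 0 to 4.

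Transcription-coupled repair removes lesions that stop RNA polymerase. Ercc8 encodes CSA, which with CSB (Ercc6) marks the stalled polymerase, and lies on the plus strand of chromosome 13 (chr13:108948925-108985558 in mm9, 13 exons, 36.6 kb). It had 14.6, 14.9 and 7.49 CPM in WT-Veh, 9.38, 10 and 6.0 CPM in WT-Topot, 10.9, 6.41 and 4.01 CPM in Top1 cKO-Veh and 5.58, 4.98 and 4.37 CPM in Top1 cKO-Topot. Replicate 3 was the lowest of its group in all 4 groups, and only the Top1 cKO-Topot libraries were all below WT-Veh. For that comparison the log2 fold change was -1.30 (SE 0.401, 95% interval -2.13 to -0.46), with an adjusted p of 0.0814 by edgeR's quasi-likelihood test and of 0.00789 with the block, where the value was -1.28. The blocked call held without WT-Veh replicate 3 or Top1 cKO-Topot replicate 3 (-1.46 each) and was lost without any of the other 4 libraries, with values from -1.24 to -1.12 and adjusted p-values from 0.0547 to 0.306. Without Top1 cKO-Topot replicate 1 the blocked fit called 0 genes of the whole table. Deletion alone gave -0.80 (SE 0.412, adjusted p = 0.656) and topotecan alone -0.55 (SE 0.36, adjusted p = 0.664).

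Ercc6 itself was at 23.7, 39.4 and 17.3 CPM in WT-Veh, 25.8, 25.8 and 24.0 CPM in WT-Topot, 25.4, 32.7 and 21.0 CPM in Top1 cKO-Veh and 26.7, 45.2 and 23.6 CPM in Top1 cKO-Topot. Replicate 2 was the highest of its group or level with the highest throughout, and the groups overlapped. Its log2 fold change with topotecan in WT cultures was -0.09 (95% interval -0.69 to 0.51), and after deletion -0.01 (95% interval -0.67 to 0.64).

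Ercc1 and Ercc4 encode the subunits of the ERCC1-XPF nuclease, which cuts beside lesions and is also known to release trapped TOP1. Ercc4 was at 20.5, 18.0 and 23.6 CPM in WT-Veh, 29.5, 32.3 and 24.0 CPM in WT-Topot, 28.9, 28.9 and 26.1 CPM in Top1 cKO-Veh and 30.3, 33.2 and 28.9 CPM in Top1 cKO-Topot. All libraries of the other groups were above those of WT-Veh. The log2 fold changes against WT-Veh, in this order, were 0.48 (SE 0.256), 0.44 (SE 0.252) and 0.60 (SE 0.261), with adjusted p-values of 0.476, 0.727 and 0.288. Ercc1 had 2.63, 6.14 and 4.61 CPM in WT-Veh, 7.71, 5.15 and 6.0 CPM in WT-Topot, 7.82, 6.41 and 9.02 CPM in Top1 cKO-Veh and 9.16, 7.97 and 9.62 CPM in Top1 cKO-Topot. The cKO groups lay above WT-Veh, and WT-Topot overlapped it. For Top1 cKO-Topot its log2 fold change was 1.05 (SE 0.44, adjusted p = 0.264, 0.0727 with the block). Neither subunit passed the test in any comparison, and 3.41% of the exon length of Ercc1 is shared with Cd3eap on the opposite strand.

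Aqr, a helicase of the spliceosome known for its part in clearing RNA-DNA hybrids, was at 22.2, 14.0 and 19.0 CPM in WT-Veh, 17.1, 14.3 and 15.8 CPM in WT-Topot, 13.3, 19.7 and 10.5 CPM in Top1 cKO-Veh and 25.5, 23.9 and 11.8 CPM in Top1 cKO-Topot. Its groups overlapped in every comparison. The nick repair genes were among the most closely bounded of all members. Lig3, the ligase that works with XRCC1, was at 26.1 to 42.0 CPM, and Aptx, which removes AMP from failed ligations, at 31.2 to 50.6 CPM, with overlapping groups throughout. With topotecan in WT cultures the 95% interval ran from -0.66 to 0.28 for Lig3 and from -0.54 to 0.43 for Aptx. Exons of Rffl on the opposite strand cover 25.1% of the exon length of Lig3.

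Among the 27 members with at least 1 CPM, libraries did not overlap in 5 for WT-Topot against WT-Veh (26.0% of the 13720 genes with at least 1 CPM did not), 6 for Top1 cKO-Veh against WT-Veh (19.9%), 4 for Top1 cKO-Topot against Top1 cKO-Veh (11.7%), 11 for Top1 cKO-Topot against WT-Veh (26.5%) and 4 for WT-Topot against Top1 cKO-Veh (24.4%). In percent of the 27 these are 18.5, 22.2, 14.8, 40.7 and 14.8. Of the 11, 8 were lower in Top1 cKO-Topot (Atm, Mdc1, H2afx, Prkdc, Brca2, Blm, Wrn and Ercc8) and 3 higher (Nbn, Ercc1 and Ercc4). Such separation is no call by itself, since 0 of the 11 passed FDR 0.01 without the block and 1, Ercc8, with it.

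Topotecan is known to lower long genes in neurons, so the span of the members was set beside their values. The members spanned 1.36 kb (H2afx) to 316 kb (Xrcc4), and 3 were over 100 kb, namely Prkdc, Xrcc4 and Wrn. In WT-Topot against WT-Veh these 3 had a median log2 fold change of -0.33 and the other 27 a median of -0.06. Over all genes with at least 1 CPM the medians were -0.42 for 2019 genes over 100 kb and 0.08 for 11329 shorter genes. With a limit of 50 kb, 15 members were longer, with a median of -0.21, and 15 were not, with -0.06, beside -0.19 and 0.10 over all genes. After deletion alone the 3 long members had a median of 0.02, and the 2019 long genes had -0.05. Blm, the member with the lowest value, spans 80.1 kb.

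**Figure D5:**
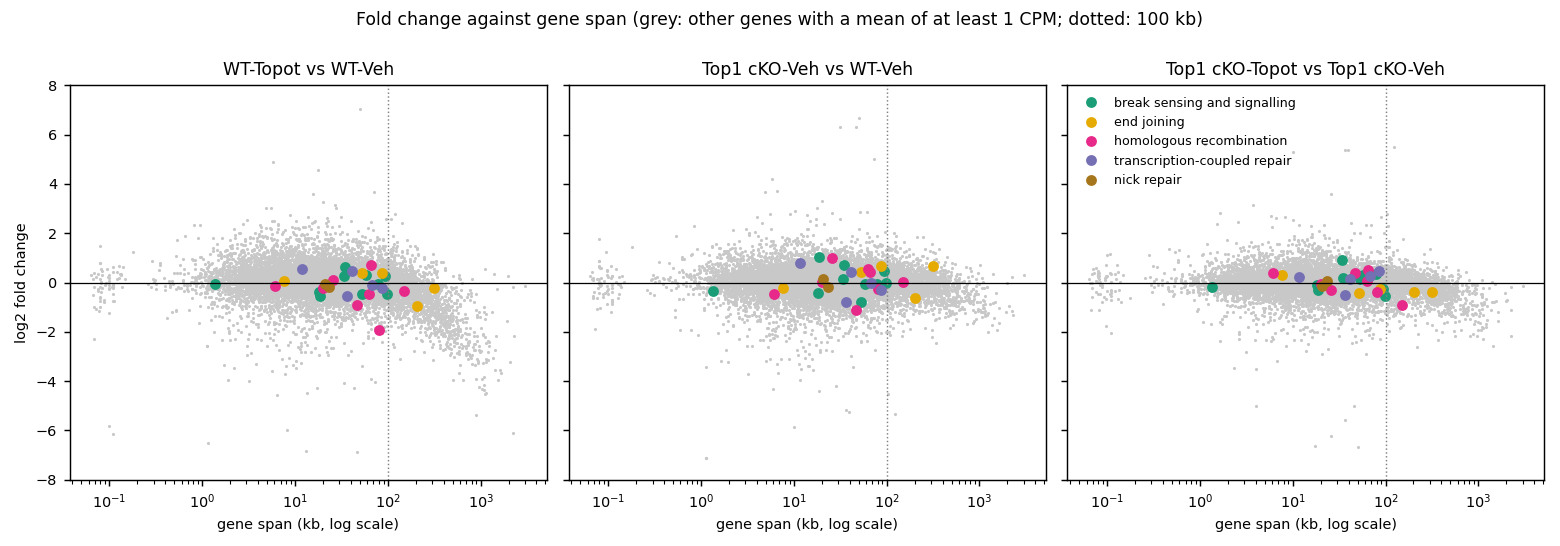
Log2 fold change (vertical axis) against the span of the gene in kb (horizontal axis, log scale) for topotecan in WT cultures, deletion alone and topotecan after deletion. Grey points are the other genes with at least 1 CPM and a known span. Large points are the repair genes by role, of which 3 lie over the 100 kb mark. In WT-Topot the grey points bend down at long spans (median -0.42 over 100 kb), while most members lie left of the bend.

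A further list of 124 genes of the same pathways, of which 123 were in the table, served as context. In WT-Topot against WT-Veh, 2 of the 123 rose and 0 fell. Over all genes 2.72% were called there, and 8.25% with the block, so the counts of calls do not set this list apart. Trp53bp2, whose product ASPP2 binds p53, rose from 9.95, 6.57 and 5.76 CPM to 28.8, 23.2 and 19.3 CPM with a log2 fold change of 1.64 (SE 0.319, adjusted p = 0.00298, edgeR's quasi-likelihood test). Slx1b, a subunit gene of the SLX1-SLX4 nuclease, rose from 11.7, 11.0 and 15.0 CPM to 29.8, 27.5 and 32.5 CPM with a log2 fold change of 1.27 (SE 0.273, adjusted p = 0.00693). In neither gene did treated and untreated libraries overlap. With the block 6 rose, among them also the end-processing gene Poll (1.25, SE 0.34), the recombination gene Xrcc3 (1.55, SE 0.396) and the helicase gene Ddx5 (0.41, SE 0.103), and 1, the kinase gene Tlk2, fell by 0.75 on the log2 scale (SE 0.179).

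After deletion, topotecan gave log2 fold changes of 0.03 (Trp53bp2, SE 0.358), 0.10 (Slx1b, SE 0.298) and 0.20 (Xrcc3, SE 0.51). The interaction was -1.61 for Trp53bp2 (adjusted p = 0.147, 0.00211 with the block), -1.17 for Slx1b (0.186, 0.0165 with the block) and -1.34 for Xrcc3 (0.637, 0.26 with the block). Tdp1, which cleaves the bond between trapped TOP1 and DNA, was not called in any comparison, with -0.33 (SE 0.375, adjusted p = 0.9) for topotecan in WT cultures.

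In Top1 cKO-Topot against WT-Veh, where 1.68% of all genes were called, 1 of the 123 genes rose and 0 fell. It was Ppm1d, the phosphatase that turns off ATM and p53 signalling, with 17.8, 16.7 and 21.9 CPM in WT-Veh, 24.8, 27.5 and 38.1 CPM in WT-Topot, 22.7, 25.9 and 47.1 CPM in Top1 cKO-Veh and 44.2, 47.2 and 40.2 CPM in Top1 cKO-Topot. Its log2 fold change was 1.25 (SE 0.252, adjusted p = 0.00512). With the block, under which 7.37% of all genes were called there, 3 genes fell as well, among them the kinase gene Tlk2 (-0.73) and the lesion recognition gene Cul4a (-0.92). Deletion alone and topotecan after deletion called 0 of the 123 with or without the block, with 9 and 3 genes at an unadjusted p under 0.05. Over all genes 5.56% and 2.59% were called with the block. Under the unadjusted threshold without the block were 14.2% and 6.84% of genes with at least 1 CPM. WT-Topot against Top1 cKO-Veh and the interaction called 0 without the block (13 and 9 at an unadjusted p under 0.05) and 4 and 2 with it. Of all genes they called 7.73% and 3.97% with the block, and 20.1% and 13.4% of genes with at least 1 CPM were under the unadjusted threshold without it. DESeq2's Wald test called 0 of the 123 in these 4 comparisons.

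The targets of p53, the transcription factor that break signalling activates, were read beside the members. Of 26 in the table, 4 rose in Top1 cKO-Topot against WT-Veh (Ccng1, Phlda3, Trp53inp1 and Btg2) and 0 fell, with the block 11 rose, and their summed level was 1769 to 2201 CPM in WT-Veh and 2836 to 3737 CPM in Top1 cKO-Topot. With topotecan after deletion 0 of the 26 passed without the block (12 at an unadjusted p under 0.05, and 4 by DESeq2's Wald test) and 10 rose with it. Among these was Cdkn1a, the cell cycle inhibitor p21, at 272, 246 and 151 CPM in Top1 cKO-Veh and 659, 346 and 510 CPM in Top1 cKO-Topot (log2 fold change 1.19, SE 0.235, adjusted p = 0.0805, and 4.9e-27 with the block). Its SE with the block was 0.0921 although the pairs of equal number rose by unlike amounts, so the blocked p rests mostly on variance shared across genes. In WT cultures 1 of the 26 rose with topotecan, Trp53inp1 at 0.98 (SE 0.185, adjusted p = 0.00226), and 1 fell, Plk3 at -2.03 (SE 0.402, adjusted p = 0.00357). With the block 5 rose there and 1 fell, and after deletion alone 3 rose and 1 fell, where 0 were called without it (3 at an unadjusted p under 0.05, 0 by DESeq2's Wald test). In Top1 cKO-Topot against Top1 cKO-Veh, 0 of the 30 repair genes were called with or without the block. Over all genes 2.59% were called there with the block and 0.00837% without it, so this 0 does not set the repair genes apart. For the other comparisons the shares of all genes were 1.68% (Top1 cKO-Topot against WT-Veh), 2.72% (topotecan in WT cultures) and 0.172% (deletion). With the block these shares were 7.37%, 8.25% and 5.56%.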

How the data were processed

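PolyA RNA of 12 cultures was sequenced as paired-end reads from RNA with an integrity number above 7. Reads were filtered (TagDust), aligned (TopHat, mm9) and freed of rRNA by the authors, who deposited raw counts over RefSeq exons per gene symbol, without normalization. The counting program, its use of strand and the versions are not given in the sources used here. The labels gave the group and the replicate number of each library. Libraries held 1730164 to 4583777 counts, and the number of counts limits the precision of low genes.

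From these counts, edgeR 4.0.16 (R 4.3.3) was used with TMM scaling. A comparison between groups used only their 6 libraries, in glmQLFit and glmQLFTest without a filter, over all 23893 genes, with Benjamini-Hochberg adjustment and an FDR of 0.01. The interaction was fitted on 12 libraries. The SE is the absolute log2 fold change divided by the square root of F, and the 95% interval follows from it. CPM values are scaled to TMM-adjusted sizes and given as mean ± SD of 3 cultures. The p-values rest on the spread between these cultures and on variance that the fit shares across all genes. In the blocked fits the shared part weighs most, so a small blocked p does not measure the spread of 3 cultures alone. Libraries of a group were no repeats of each other (dispersion index 6.05 to 10.1, against 1 for sampling noise alone).

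The numbers 1 to 3 of the labels were taken to pair the libraries, since deviations from the group means over 13720 genes correlated at 0.261 to 0.485 in all 18 pairs of equal number. In 36 pairs of different number the values were -0.384 to -0.0494. Deviations within a group cancel, so these negative values follow on average from the positive ones and are no separate support. What a number stands for is not stated in the labels. The fit without the block is given first, and the blocked fit beside the repair genes and lists whose calls it changes in the comparisons described.

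Alternatives were DESeq2 1.42.0 (its size factors and its Wald test), filterByExpr, a fit of all 12 libraries, an FDR of 0.05, a length limit of 50 kb and leaving out each library. Leaving out a library within the block was added after the data were seen. The fits were tested on simulated data. Spans and exon lengths come from GENCODE vM1 on the assembly of mm9 (21013 symbols matched directly, 1067 by synonym, 1813 not matched), and promoters from RefSeq on GRCm38.p6.

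The members and lists were chosen with earlier results of these data known. All members are reported, and of the other repair genes those past FDR 0.01 with or without the block, at most 10 per direction and comparison, without a few genes that are not reported here. Of p53 targets and cell type markers at most 3 per direction are named, by smallest p. Cdkn1a, Tdp1 and the listing of 4 p53 targets are outside this rule and were named after their values were seen.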

Additional observations from a re-analysis of the deposited data

Results flagged for a closer look

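The direction of the change with topotecan differed between genotypes in 2 of the 27 repair genes with at least 1 CPM, in that all 3 libraries moved one way in WT cultures and the other way after deletion when libraries of equal number were compared. The same held for 1116 of 13720 genes (8.13%), against 7.41% of the members. Trp53bp1 changed by -0.13, -0.05 and -0.04 in WT cultures and by 0.50, 0.09 and 0.40 after deletion, on the scale of log2(CPM + 1). The interaction was 0.403 (SE 0.225), with an adjusted p of 0.747 by edgeR's quasi-likelihood test and of 0.193 with the block, so the difference did not pass. Brca2 changed by -0.86, -1.01 and -0.46 in WT cultures and by 0.31, 0.17 and 0.63 after deletion. Its interaction was 1.28 (SE 0.472), with an adjusted p of 0.32, and of 0.0569 with the block.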

How the results depend on the processing

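The count of repair genes called was 0 in all 6 comparisons with DESeq2's size factors, with its Wald test, with filterByExpr, with an FDR of 0.05 without the block, and without each library in turn (0 to 0), and in the 5 comparisons refitted on 12 libraries. Combined with DESeq2's size factors or with filterByExpr, an FDR of 0.05 gave 1 member in WT-Topot against WT-Veh. Without 1 library it gave 0 or 1 in any comparison without the block. With the block, an FDR of 0.05 gave 2 members in WT-Topot against WT-Veh, 1 in each other comparison of 2 groups and 0 for the interaction. At FDR 0.01 the replicate block made the count 1 in WT-Topot against WT-Veh (Blm) and in Top1 cKO-Veh against WT-Veh (Brca2). The block also made it 1 in Top1 cKO-Topot against WT-Veh (Ercc8), and changed no other count of members at this FDR. With the block and 1 library left out, the count was 0 to 1 for Blm and for Ercc8 and 0 for Brca2. It was 1 without WT-Topot replicate 2 for Blm, and 1 without WT-Veh replicate 3 or Top1 cKO-Topot replicate 3 for Ercc8. Under the block, leaving out a library in a comparison of 2 groups also takes its partner of the same number out of the contrast, which leaves 4 libraries. In the interaction, fitted on 12 libraries, the other libraries of that number stay in the fit. Of 3351 values of single members under alternatives, 3345 stayed on their side of the threshold and 6 passed it, and 300 values that were not called changed sign. Over all genes, the count rose with the block from 651 to 1970 in WT-Topot against WT-Veh, from 41 to 1328 in Top1 cKO-Veh against WT-Veh, from 2 to 620 in Top1 cKO-Topot against Top1 cKO-Veh, from 402 to 1760 in Top1 cKO-Topot against WT-Veh, from 365 to 1846 in WT-Topot against Top1 cKO-Veh and from 104 to 948 for the interaction. In the second of these it was 3 with filterByExpr, 72 on 12 libraries and 223 with the Wald test. With filterByExpr it was 0 for topotecan after deletion, 249 for Top1 cKO-Topot against WT-Veh, 238 for WT-Topot against Top1 cKO-Veh and 64 for the interaction, and with the Wald test 53, 619, 629 and 357. On 12 libraries topotecan after deletion called 7. Leaving out 1 library moved these counts over all genes. Without the block they ran from 554 to 1027 (without WT-Veh replicate 2 or 3) for WT-Topot against WT-Veh, from 8 to 128 (WT-Veh 2, Top1 cKO-Veh 1) for deletion, from 1 to 132 (Top1 cKO-Topot 2, Top1 cKO-Veh 3) for topotecan after deletion, from 230 to 901 (Top1 cKO-Topot 2, WT-Veh 3) for Top1 cKO-Topot against WT-Veh, from 214 to 871 (Top1 cKO-Veh 2 or 3) for WT-Topot against Top1 cKO-Veh, and from 51 to 140 (WT-Topot 1, WT-Veh 1) for the interaction. With the block they ran from 1380 to 1683, 746 to 917, 98 to 615, 0 to 1813, 0 to 1701 and 666 to 1165 in the same order, with the counts of 0 without Top1 cKO-Topot replicate 1 and without WT-Topot replicate 2. Depth limits the members below 1 CPM, for which 3 counts are the floor.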
